A study of Homo sapiens with 9 samples.

Results

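Glycolysis and hypoxia response genes were followed across a platinum-sensitive human ovarian carcinoma line and its resistant derivatives. The set holds the enzymes that break glucose down to pyruvate and lactate, the glucose transporters, the oxygen-sensing genes and known targets of the hypoxia-inducible factor. It was chosen by gene name from a list of 34 genes, each represented by its annotated probe with the highest mean log2 intensity. Of these, 33 were measured among 18852 genes, and 1 of the 34 listed genes is not analysed here. The resistant lines were IGROV-1/OHP (OHP), labelled as oxaliplatin-resistant cells, and IGROV-1/Pt1 (Pt1), a cisplatin-resistant derivative. Both were set against parental IGROV-1 cells, which are sensitive to cisplatin, a drug that crosslinks DNA. The text describing the series names cisplatin as the selecting drug for both derivatives, so the agent behind OHP is uncertain. Each line was measured on 3 arrays from samples described as independent, 9 arrays in all, from cells in exponential growth, and the labels name no hypoxic treatment. Each label of resistance is represented by 1 line, so the effect of a drug and the history of a line cannot be told apart.

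Glycolysis converts glucose to pyruvate in the cytosol, and pyruvate is then either oxidised in mitochondria or reduced to lactate. Many carcinoma cells draw heavily on this route also when oxygen is present. When oxygen is low, the prolyl hydroxylases that mark hypoxia-inducible factor alpha subunits for destruction slow down, and the factor switches on genes for glucose uptake, glycolysis, pH control, blood vessel growth and mitophagy. It binds DNA at the hypoxia response element, whose short core reads ACGTG or GCGTG.

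That core was looked up on both strands in the windows from 250 bases before to 50 bases after each annotated start (RefSeq, GRCh38.p14). Windows on the chromosome that carries BNIP3L and NDRG1 were left out for the members and kept for all genes, so the shares below do not rest on like sets. Among the rest, windows were found for 29 of the 33 measured members, 52 windows in all. The core occurred in at least 1 window of 27 of these 29 genes (93.1%), against 52.4% of 27305 genes with such windows. ACGTG alone occurred in 17 of the 29 (58.6%), against 24.9% of all genes. The members' windows also had a higher GC content, with a median of 68.8% against 58.7%, and there were 1.79 windows per member against 1.29 per gene. The part of base composition and window number in the difference was not tested, and a match describes the letters only. The windows of 5 members with a difference past the test are printed 5′ to 3′ on the strand of the gene, because they show how the core sits near the start of genes that moved in different directions. Capitals mark the core on either strand. Positions count from the annotated start.
CA12: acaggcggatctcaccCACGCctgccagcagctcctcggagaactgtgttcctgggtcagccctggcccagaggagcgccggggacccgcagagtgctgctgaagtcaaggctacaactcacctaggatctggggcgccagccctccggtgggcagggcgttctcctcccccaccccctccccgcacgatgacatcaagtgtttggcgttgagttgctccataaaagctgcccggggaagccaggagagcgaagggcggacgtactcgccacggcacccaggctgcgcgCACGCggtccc
ENO2: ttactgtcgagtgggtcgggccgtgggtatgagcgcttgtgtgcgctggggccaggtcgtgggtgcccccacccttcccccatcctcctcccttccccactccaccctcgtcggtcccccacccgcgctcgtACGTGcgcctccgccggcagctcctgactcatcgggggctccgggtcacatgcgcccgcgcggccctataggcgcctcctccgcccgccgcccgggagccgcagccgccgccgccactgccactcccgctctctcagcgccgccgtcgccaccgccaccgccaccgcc
ADM: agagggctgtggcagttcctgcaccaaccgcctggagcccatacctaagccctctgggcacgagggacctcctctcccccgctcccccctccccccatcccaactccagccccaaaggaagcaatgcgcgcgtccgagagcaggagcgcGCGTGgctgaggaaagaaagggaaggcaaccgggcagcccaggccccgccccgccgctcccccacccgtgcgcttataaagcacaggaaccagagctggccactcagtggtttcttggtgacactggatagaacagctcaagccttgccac
ANKRD37: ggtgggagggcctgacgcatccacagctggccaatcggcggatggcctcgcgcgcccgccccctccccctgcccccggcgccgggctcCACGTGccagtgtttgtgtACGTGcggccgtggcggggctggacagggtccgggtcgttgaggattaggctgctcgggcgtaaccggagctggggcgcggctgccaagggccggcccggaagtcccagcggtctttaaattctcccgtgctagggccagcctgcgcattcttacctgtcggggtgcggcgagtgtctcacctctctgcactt
ALDOC: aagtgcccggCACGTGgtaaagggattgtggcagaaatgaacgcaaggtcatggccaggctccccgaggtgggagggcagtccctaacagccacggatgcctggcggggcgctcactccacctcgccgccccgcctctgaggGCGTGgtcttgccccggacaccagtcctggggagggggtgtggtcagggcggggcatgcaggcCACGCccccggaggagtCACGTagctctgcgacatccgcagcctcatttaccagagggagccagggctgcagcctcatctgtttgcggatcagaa
The CA12 window (chr15:63381797-63382096, minus strand) held the core at -234 and 40. The ENO2 window (chr12:6914330-6914629, plus strand) held it at -118, and the ADM window (chr11:10304823-10305122, plus strand) at -101. In ANKRD37 (chr4:185396591-185396890, plus strand) the palindrome CACGTG gave overlapping matches at -162 and -161, and a further match stood at -143. ALDOC (chr17:28576846-28577145, minus strand) had matches at -240, -239, -108, -45 and -28. The window of EGLN3, another member that passed the test, had no match. HK1, which also passed, had several windows, most of them without the core, with matches at 16 and -149. The printed windows all hold the core, so they do not stand for all members that passed. The core was thus present near the start of CA12, which fell in both resistant lines, of ENO2, which fell in OHP, and of ADM, ANKRD37 and ALDOC, which rose in at least 1 comparison.

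Depth in array data is given by signal above background. A background ceiling of 302.19 intensity units, the upper end of the range that holds the central 95% of 431 olfactory receptor probes, was used, and between 10300 and 10516 genes lay above it on each array. Of the 33 members, 28 lay above it on all 9 arrays and 5 (ENO2, EGLN3, CA12, EGLN1 and PDK1) on some. Precision is limited by the number of arrays, 3 per line. OHP array 2 stood apart, with a correlation over all genes of 0.942 with OHP array 1 and 0.926 with OHP array 3, against 0.99 between those arrays. It was closest to parental array 2 (0.956). The ovarian lineage marker PAX8 was bright in every line, between 8633 and 28350.2, and KRT19 between 12381 and 66708, whereas WT1 was not above the ceiling on any array and EPCAM and CDH1 on no Pt1 array. Of the 10 epithelial and ovarian markers, KRT7 and MSLN rose and KRT19 and EPCAM fell in OHP against parental cells, and KRT8, KRT18 and MSLN rose and KRT7, KRT19, EPCAM and CDH1 fell in Pt1. The summed epithelial and ovarian markers lay between 45476 and 69977 in OHP, between 57276 and 60639 in Pt1 and between 102296 and 108377 in parental cells. Leucocyte and fibroblast markers were above the ceiling on all arrays of a line for 0 of 4 and 0 of 6 genes in each line. The summed endothelial markers (4 genes, of which VWF and PECAM1 were above the ceiling throughout) lay between 4402 and 10486 in OHP, between 2436 and 3349 in Pt1 and between 1604 and 3202 in parental cells. The part of these marker differences in the results was not tested. In bulk RNA, fewer cells expressing a gene and less RNA per cell cannot be told apart.

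A member was called when its Benjamini-Hochberg adjusted p from limma, over all 18852 genes of a comparison, was under 0.05. In OHP against parental cells 3 members were lower (ENO2, EGLN3 and CA12) and 0 higher, 9.09% against 5.41% of all genes, of which 1.75% were higher and 3.67% lower. In Pt1 against parental cells 3 members were higher (HK1, ADM and ANKRD37) and 1 was lower (CA12). These 4 of 33 (12.1%) compare with 9.88% of all genes, 4.15% higher and 5.73% lower. In OHP against Pt1 cells, ALDOC was higher and HK1, ENO2 and ADM were lower, again 12.1%, against 7.59% of all genes with 3.51% higher and 4.07% lower. The shares of members called lay near those over all genes. Many of those genes were not above background. Among genes above the ceiling on all arrays of at least 1 line, 6.25% of members and 9.3% of genes passed in OHP against parental cells. These shares were 12.5% and 17.3% in Pt1 against parental cells, and 12.5% and 13.5% in OHP against Pt1. At an unadjusted p under 0.05, limma gave 4 higher and 5 lower members in OHP against parental cells (16% of all genes), 5 higher and 4 lower in Pt1 against parental cells (22.2%), and 2 higher and 5 lower in OHP against Pt1 (20.8%). The members' median log2 fold change was -0.03 in OHP and 0.11 in Pt1 against parental cells, beside -0.01 and -0.02 over all genes, and -0.16 in OHP against Pt1 beside 0.01. The F-test over the 3 lines called 7 members (21.2%), where 12.3% of all genes passed, and these were the 7 genes named here. The other 26 members passed in no comparison. CA12 was the single member called with the same sign in both resistant lines, which were set against the same parental arrays. How many of all genes were called in both lines was not counted.

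**Figure D1:**
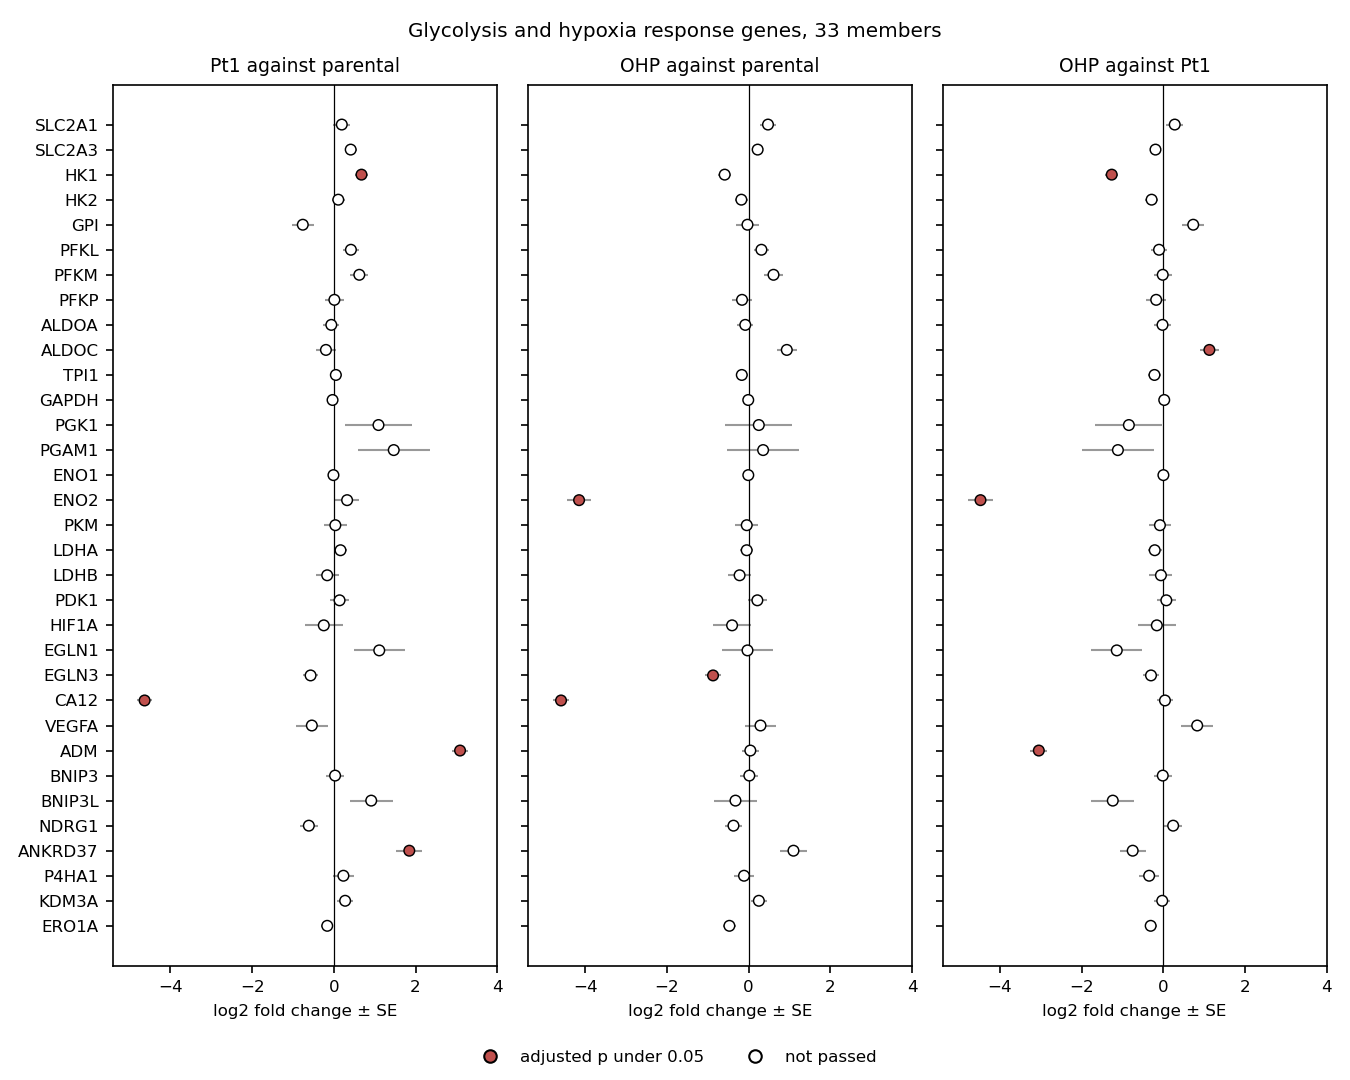
Log2 fold change with its SE (x axis) of the 33 members (y axis, in order of role), in 1 panel per comparison, with each resistant line against parental cells and then OHP against Pt1. Filled points passed an adjusted p under 0.05. CA12 lies at -4.59 in OHP and -4.63 in Pt1 against parental cells, ENO2 at -4.15 in OHP against parental cells and -4.47 against Pt1, and ADM at 3.09 in Pt1 against parental cells.

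Glucose enters the cell through facilitative transporters and is trapped by hexokinases. The transporter SLC2A1, known as GLUT1, had intensities of 4889.9, 5576 and 3435 in OHP, 3291, 3908 and 4106 in Pt1 and 3439.5, 3451 and 3001 in parental cells. The OHP arrays reached the highest values but overlapped the parental ones, and neither line passed the test, at 0.48 ± 0.20 in OHP and 0.19 ± 0.20 in Pt1 on the log2 scale. The dimmer SLC2A3 (GLUT3) had 456, 405 and 462 in OHP, 494, 469 and 502 in Pt1 and 388, 379 and 406 in parental cells. Pt1 lay above parental cells on every array, at 0.41 ± 0.14 (adjusted p = 0.112). SLC2A3 has a close copy, SLC2A14, so its probe may read both genes.

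HK1, the hexokinase expressed in most tissues, separated the lines without overlap. Its intensities were 10826, 8721 and 9668 in OHP, 23642, 23625 and 22075 in Pt1 and 13854, 16271 and 13489 in parental cells. Pt1 was highest and OHP lowest, with parental cells between. HK1 fell by 1.26 ± 0.15 on the log2 scale in OHP against Pt1, 2.4-fold lower (adjusted p = 0.000818). In Pt1 against parental cells it rose by 0.68 ± 0.15 (adjusted p = 0.021). The Pt1 call ended without any 1 Pt1 array, parental array 1 or parental array 3, with adjusted p between 0.0637 and 0.0888. It also ended with the mean of the gene's probes, at 0.45 (adjusted p = 0.0786). In OHP against parental cells the difference was -0.58 ± 0.15 (adjusted p = 0.0623), which passed without background correction (adjusted p = 0.0229). With the mean of the gene's 4 probes it was -0.14 (adjusted p = 0.74), and OHP against Pt1 was -0.59 (adjusted p = 0.0324). Of the other 3 probes, 2 were above the ceiling on 0 arrays and 1 on 2 of 9. HK2, the inducible hexokinase of many tumours, had 1602, 1507 and 1707 in OHP, 1716, 2192 and 1916 in Pt1 and 1787, 1993 and 1634 in parental cells, and passed in no comparison.

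In upper glycolysis, the sugar phosphate is isomerised, phosphorylated again and split. GPI, which makes fructose 6-phosphate, had 24334, 13599 and 28406 in OHP, 12011, 11623 and 14759 in Pt1 and 19032, 20200.2 and 25786 in parental cells. All Pt1 arrays lay below all parental arrays, and OHP array 2 lay well under the other OHP arrays. Its log2 differences were -0.76 ± 0.27 in Pt1 against parental cells (adjusted p = 0.126) and 0.73 ± 0.27 in OHP against Pt1 (adjusted p = 0.156).

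The phosphofructokinases, the committing step, were measured as liver, muscle and platelet forms. PFKM had 6631, 3798 and 6064 in OHP, 5224, 5427 and 5514 in Pt1 and 3200.0, 3343 and 4114 in parental cells. Pt1 lay above every parental array, while OHP array 2 lay among the parental values. The differences from parental cells were 0.61 ± 0.22 in OHP (adjusted p = 0.189) and 0.62 ± 0.22 in Pt1 (adjusted p = 0.125). PFKL had 3637, 3075 and 3341 in OHP, 3425, 3467 and 3869 in Pt1 and 2081, 2929 and 3255 in parental cells, and Pt1 lay above every parental array at 0.42 ± 0.19 (adjusted p = 0.246). PFKP ran between 9319 and 17656 with the lines overlapping.

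Aldolase splits fructose bisphosphate. ALDOC, the form known from brain, had intensities of 7986, 13526 and 11689 in OHP, 6369, 3946 and 4951 in Pt1 and 5788, 6089 and 5234 in parental cells. Every OHP array lay above every array of the other lines. ALDOC rose by 1.13 ± 0.24 in OHP against Pt1 (adjusted p = 0.0201), and the difference from parental cells was 0.94 ± 0.24 (adjusted p = 0.0574). The call against Pt1 ended without Pt1 array 2 (adjusted p = 0.0947) or Pt1 array 3 (adjusted p = 0.0806). OHP against parental passed without OHP array 1 (adjusted p = 0.0285) or OHP array 2 (adjusted p = 0.0319). The probe used for ALDOA, the aldolase of muscle and many other cells, was bright on every array, between 30016 and 50164. The probe used for TPI1, which interconverts the triose phosphates, ran between 48071 and 65794, where the highest value on the arrays was 71072.36.

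Lower glycolysis yields ATP and pyruvate. ENO2, the enolase form known from neurons, was bright in Pt1 and parental cells and dim in OHP. Its intensities were 252, 468 and 275 in OHP, 4836, 4632 and 5362 in Pt1 and 3661, 4804 and 3528 in parental cells. OHP arrays 1 and 3 were under the background ceiling and OHP array 2 above it, while every Pt1 and parental array was at 3528 or more. ENO2 fell by 4.15 ± 0.30 in OHP against parental cells (adjusted p = 3.89e-05), and fell by 4.47 ± 0.30 in OHP against Pt1 (adjusted p = 1.48e-05). Pt1 and parental cells overlapped, at 0.32 ± 0.30 (adjusted p = 0.614). Without OHP array 2, OHP was not above background on either remaining array and was at least 13.1-fold lower than parental cells and at least 16.3-fold lower than Pt1, each being the brighter line's geometric mean over the ceiling.

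ENO1, the ubiquitous enolase, ran between 65562 and 69719. GAPDH, which oxidises glyceraldehyde 3-phosphate, ran between 65521 and 70433. The highest value on the arrays was 71072.36, so these probes had little room to rise. The 95% intervals of the GAPDH log2 differences were -0.30 to 0.29 in OHP and -0.32 to 0.26 in Pt1 against parental cells. For ENO1 they were -0.30 to 0.29 in OHP and -0.30 to 0.28 in Pt1.

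PGK1, which makes ATP from bisphosphoglycerate, had 20321, 2319.9 and 25748 in OHP, 18925, 18324 and 19416 in Pt1 and 8603, 4753 and 17358 in parental cells. PGAM1, the mutase that follows it, had 15789, 1643 and 20820.4 in OHP, 16034, 18401 and 17407 in Pt1 and 5708, 3251 and 13630.1 in parental cells. On these probes Pt1 lay above every parental array in both genes, while OHP array 2 and parental array 2 were the lowest of their lines. The second PGK1 probe, above the ceiling on all arrays, went the other way. It had 5985, 6464 and 5810 in Pt1, all below the 8104, 6528 and 7648 in parental cells, at -0.29 ± 0.29 (limma adjusted p over probes = 0.667). On the probes used, the difference of Pt1 from parental cells was 1.09 ± 0.82 for PGK1 (adjusted p = 0.516) and 1.47 ± 0.88 for PGAM1 (adjusted p = 0.391), with a wide error. This error pools the spread within all 3 lines, OHP included. The log2 SD of PGK1 was 1.95 in OHP, 0.04 in Pt1 and 0.95 in parental cells. For PGAM1 it was 2.06, 0.10 and 1.06. PKM, the pyruvate kinase of muscle and tumour cells, had 21709, 35681 and 16133 in OHP, 23625, 25686 and 24316 in Pt1 and 22710.5, 30202 and 19940.0 in parental cells, with the lines overlapping. On its other 2 probes, above the ceiling on all arrays, every Pt1 array lay above every parental array, but neither passed the test. The dimmer had 3811, 692 and 4525 in OHP, 6079.7, 5954 and 5674 in Pt1 and 2411, 1179.6 and 2944 in parental cells, with Pt1 at 1.59 ± 0.67 from parental cells (limma adjusted p over probes = 0.216). The brighter had 6686, 2827 and 6188 in OHP, 10041, 10286 and 9198 in Pt1 and 5829, 4848 and 6684 in parental cells, with Pt1 at 0.79 ± 0.31 (adjusted p = 0.177). OHP array 2 was the lowest array on both.

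Pyruvate is reduced by lactate dehydrogenase or kept from oxidation by pyruvate dehydrogenase kinases. LDHA, the subunit known to favour lactate formation, had 66118, 47068 and 65671 in OHP, 66746, 68512 and 68807 in Pt1 and 59655, 60595 and 62071 in parental cells. Pt1 was above parental cells on every array, at 0.16 ± 0.17 (adjusted p = 0.656). The Pt1 values were as close to the highest value on the arrays as those of ENO1 and GAPDH, so this difference too had little room to be larger. LDHB, the subunit of oxidative tissues, had 42563, 18116 and 36678 in OHP, 31890.1, 32794 and 30363 in Pt1 and 34543, 33606 and 38308 in parental cells, with Pt1 below every parental array at -0.16 ± 0.28 (adjusted p = 0.818). PDK1 stayed close to the ceiling, between 266 and 414. None of these 3 genes was called.

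**Figure D2:**
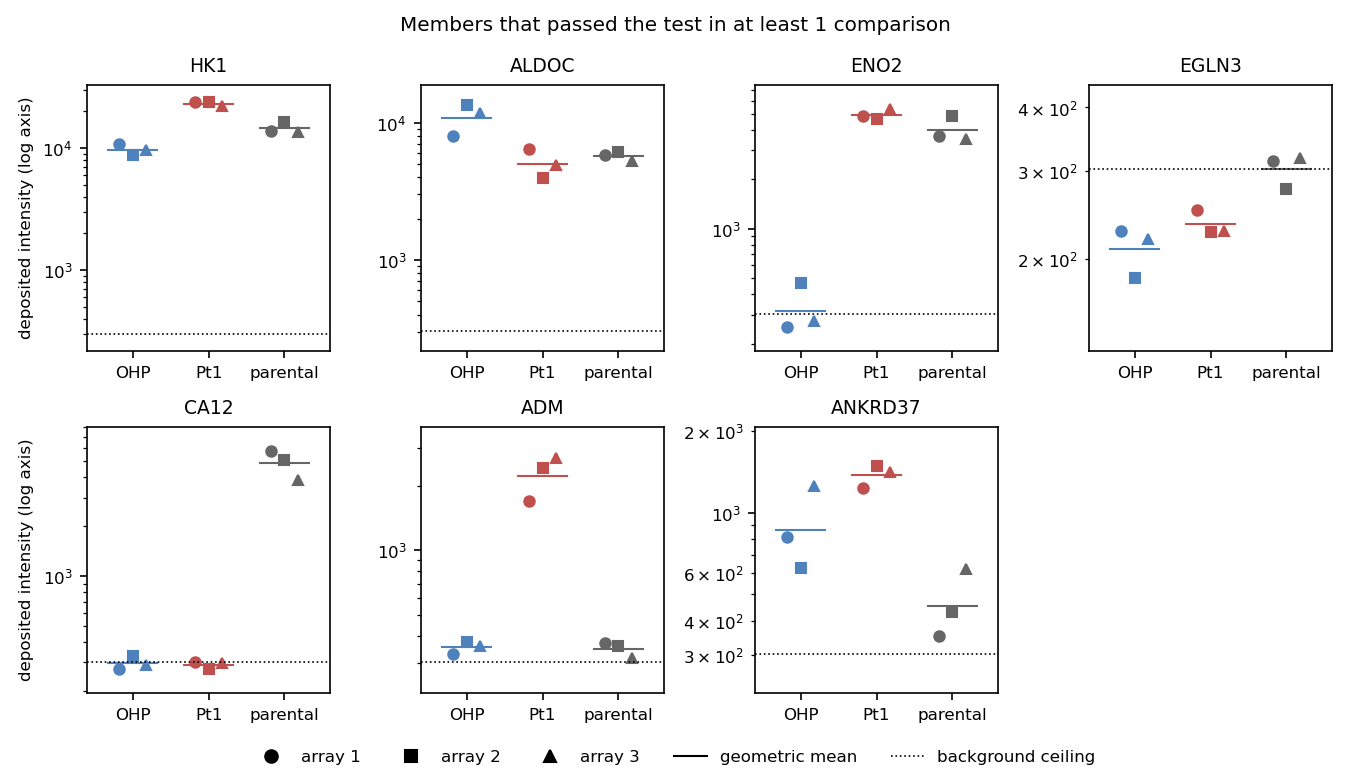
Deposited intensity (y axis, log scale) of the 7 members called in at least 1 comparison, 1 panel each, by line (x axis: OHP, Pt1, parental), with a point for each array, a bar at the geometric mean of 3 arrays and a dotted line at the background ceiling of 302.19. CA12 is bright in parental cells alone, ENO2 is dim in OHP alone, ADM is high in Pt1 alone, and EGLN3 lies near or below the ceiling in every line.

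The oxygen-sensing genes are HIF1A, a regulated subunit of the factor, and the prolyl hydroxylases EGLN1 and EGLN3. EGLN3 had intensities of 227, 184 and 219.8 in OHP, 251, 227 and 227 in Pt1 and 314, 275 and 317 in parental cells. It was not above the ceiling on any OHP or Pt1 array, and parental arrays straddled it with a geometric mean of 301.6, so no bound on its fold is given. The fitted difference in OHP against parental cells was -0.87 ± 0.19 (adjusted p = 0.0307). This call ended without any 1 Pt1 or parental array, with adjusted p between 0.0537 and 0.124. It also ended in the fit of OHP and parental arrays alone with the replicate number as a block (adjusted p = 0.0605). EGLN1 had 948, 261 and 1295 in OHP, 1432, 1347 and 1164 in Pt1 and 689, 479 and 877 in parental cells. Pt1 lay above every parental array, and OHP array 2 was under the ceiling, unlike the other OHP arrays. Its differences were -0.03 ± 0.62 in OHP and 1.11 ± 0.62 in Pt1 against parental cells, and neither passed.

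HIF1A had 3 probes, and they differed. The probe used for the gene had 1684, 863 and 3029 in OHP, 2241, 1768 and 1476 in Pt1 and 2385, 1365 and 2938 in parental cells, with the lines overlapping and differences of -0.40 ± 0.46 in OHP and -0.25 ± 0.46 in Pt1. The second probe had 932, 426 and 1179.8 in OHP, 939.5, 744 and 599.9 in Pt1 and 1001, 619 and 1206 in parental cells, and was not called in either line. A further probe, annotated to a different transcript record of HIF1A, had 1508, 2014 and 1400.4 in OHP, 1331, 989.9 and 992 in Pt1 and 2974, 3284 and 3567 in parental cells. Every parental array lay above every array of both resistant lines. Tested over 28098 probes by limma, it fell by 1.06 ± 0.20 in OHP (adjusted p = 0.0183) and fell by 1.67 ± 0.20 in Pt1 (adjusted p = 0.000805) against parental cells. The OHP call ended without OHP array 1 or 3 or any 1 parental array (adjusted p between 0.0515 and 0.0872), and the Pt1 call held without each array in turn (adjusted p up to 0.00714). This probe was singled out after its values were seen. Of 12 other probes of members above the ceiling on all arrays, it was the single one called in either line, where 4.21% of all probes passed in OHP and 8.08% in Pt1 against parental cells. Its OHP against Pt1 difference was 0.61 ± 0.20 (adjusted p = 0.132), where 5.93% of probes passed.

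**Figure D3:**
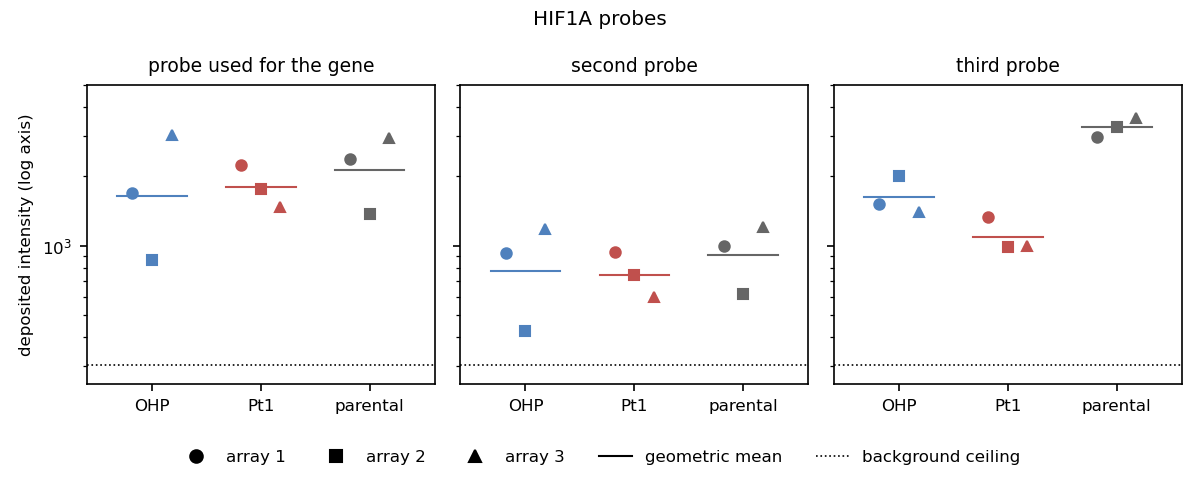
Deposited intensity (y axis, log scale) of the 3 HIF1A probes by line (x axis: OHP, Pt1, parental), with a point for each array, a bar at the geometric mean of 3 arrays and a dotted line at the background ceiling. The lines overlap in the first panels, whereas the third probe is between 1400 and 2014 in OHP, between 990 and 1331 in Pt1 and between 2974 and 3567 in parental cells.

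CA12, a membrane carbonic anhydrase that converts carbon dioxide to bicarbonate and protons at the cell surface, was bright in parental cells and close to background in both resistant lines. Its intensities were 272, 325 and 288 in OHP, 298, 271 and 296 in Pt1 and 5790.1, 5103 and 3856 in parental cells. All parental arrays lay far above the resistant ones, and OHP array 2 was the single resistant array above the ceiling. CA12 fell by 4.59 ± 0.19 in OHP (adjusted p = 1.23e-06) and fell by 4.63 ± 0.19 in Pt1 (adjusted p = 7.46e-07) against parental cells. Since Pt1 was not above background on any array, it was at least 16-fold lower there, the parental geometric mean over the ceiling. The second CA12 probe gave 219, 232 and 189 in OHP, 204, 181 and 201 in Pt1 and 1469.5, 1531 and 970.0 in parental cells. It was not above the ceiling on any resistant array and was at least 4.29-fold lower in OHP (limma adjusted p over probes = 3.53e-05) and in Pt1 (adjusted p = 1.39e-05) than in parental cells. OHP and Pt1 did not separate, at 0.04 ± 0.19 (adjusted p = 0.929).

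The secreted signals were ADM, adrenomedullin, a vasodilator peptide, and VEGFA, the growth factor of blood vessels. ADM had intensities of 331, 374 and 360.3 in OHP, 1693, 2423 and 2693 in Pt1 and 371, 357 and 315 in parental cells. It was high in Pt1 alone, and OHP and parental arrays lay just above the ceiling and overlapped. ADM rose by 3.09 ± 0.20 in Pt1 against parental cells, 8.51-fold higher (adjusted p = 1.38e-05). In OHP against Pt1 it fell by 3.05 ± 0.20 (adjusted p = 1.46e-05). OHP against parental cells was 0.04 ± 0.20 (adjusted p = 0.958), a difference whose sign turned in some other settings. VEGFA had 1472, 1718 and 1698 in OHP, 1178, 802 and 927 in Pt1 and 2678, 974 and 954 in parental cells. OHP lay above every Pt1 array, at 0.83 ± 0.39 (adjusted p = 0.261), and this passed without parental array 1 (adjusted p = 0.0409), the array with the brightest VEGFA signal.

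The mitophagy receptors BNIP3 and BNIP3L mark mitochondria for removal. BNIP3 was bright, with 25831, 37495 and 22364 in OHP, 27314, 29000.2 and 27979 in Pt1 and 25407, 33819.9 and 24204 in parental cells, and the lines overlapped, at 0.02 ± 0.22 in OHP and 0.03 ± 0.22 in Pt1. BNIP3L had 1621, 483 and 2183 in OHP, 3288, 2235 and 2443 in Pt1 and 1512, 1125 and 1736 in parental cells. Every Pt1 array lay above every other array. The difference was 0.91 ± 0.53 in Pt1 against parental cells (adjusted p = 0.374) and -1.23 ± 0.53 in OHP against Pt1 (adjusted p = 0.224). On the dimmer second BNIP3L probe, Pt1 and parental arrays overlapped, at 0.02 ± 0.25.

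Among the other targets, ANKRD37, a small ankyrin repeat protein, had intensities of 814, 629 and 1256 in OHP, 1234, 1487 and 1420.1 in Pt1 and 353, 429 and 623 in parental cells. Parental cells lay below every array of both resistant lines. ANKRD37 rose by 1.85 ± 0.32 in Pt1, 3.6-fold higher (adjusted p = 0.00571). In OHP the difference was 1.10 ± 0.32 (adjusted p = 0.0943), and it passed with the replicate number as a block (adjusted p = 0.0417) or in OHP and parental arrays alone with that block (adjusted p = 0.0401). Without OHP array 2 it was 1.36 ± 0.28 (adjusted p = 0.00425). NDRG1, a stress-responsive protein often used as a hypoxia marker, ran the other way with 2354, 3631 and 2727 in OHP, 2098, 2296 and 2974 in Pt1 and 3261, 3921 and 3830.3 in parental cells. Pt1 lay below every parental array at -0.61 ± 0.21 (adjusted p = 0.115).

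ERO1A, the oxidase that forms disulphide bonds in the endoplasmic reticulum, had 1995, 2016 and 2495 in OHP, 2727, 2683 and 2529.9 in Pt1 and 2946, 3086 and 2816 in parental cells, lowest in OHP and highest in parental cells without overlap. Its differences were -0.47 ± 0.15 in OHP (adjusted p = 0.13) and -0.16 ± 0.15 in Pt1 (adjusted p = 0.615). P4HA1, the alpha subunit of collagen prolyl hydroxylase, ran between 2572 and 5284. KDM3A, a histone demethylase, had 1378, 1839 and 1359.6 in OHP, 1785, 1614 and 1254 in Pt1 and 1349, 1316 and 1189 in parental cells, with every OHP array above every parental array but a difference of 0.25 ± 0.20 (adjusted p = 0.643). The 5 genes of this group therefore held 1 call, ANKRD37 in Pt1.

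Counts of members whose arrays did not overlap between lines were larger than the counts of calls. In OHP against parental cells 3 members lay wholly above and 6 wholly below, where 7.57% and 11% of all genes did so (18.6% together). In Pt1 against parental cells 11 lay wholly above and 6 wholly below, where 18.2% and 21.2% did so (39.4% together). In OHP against Pt1 cells 2 lay wholly above and 9 wholly below, where 13.9% did so each way (27.8% together). The 9 were SLC2A3, HK1, HK2, TPI1, ENO2, LDHA, ADM, BNIP3L and ERO1A. The second probes of HK2 and TPI1, both above the ceiling on all arrays, overlapped between OHP and Pt1. That HK2 probe had 1156, 1638 and 943 in OHP and 933, 1432 and 1293 in Pt1.

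OHP array 2 departed from its line in several glycolytic genes, and parental array 2 departed the same way in some of them. Of 33 members, 6 (PGK1, PGAM1, LDHB, HIF1A, EGLN1 and BNIP3L) were at least 2-fold lower on OHP array 2 than on the mean of the other OHP arrays, and 10.3% of all genes were. ENO2 was at least 2-fold higher there, as were 12.6% of all genes. On parental array 2, 3 members (PGK1, PGAM1 and HIF1A) were at least 2-fold lower than on the other parental arrays, against 1.01% of all genes. No member was that much higher, against 0.44%.

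Probes of the same gene did not all move together on these arrays. The second TPI1 probe had 56072, 4305 and 55715 in OHP, 56270.3, 49484 and 58815 in Pt1 and 26048, 13562 and 42355 in parental cells. It was 13.3-fold lower on OHP array 2 and 2.46-fold lower on parental array 2 than on the rest of the line, whereas the probe used for TPI1 was not 2-fold lower on either. On the second TPI1 probe every Pt1 array lay above every parental array, at 1.15 ± 0.87 (limma adjusted p over probes = 0.538). Another ALDOA probe had 34955, 2392 and 49484 in OHP, 27786, 27513 and 27150.0 in Pt1 and 15287, 4783 and 17327 in parental cells, 18.1-fold lower on OHP array 2 and 3.45-fold lower on parental array 2. The second PGAM1 probe had 6878, 551 and 10512 in OHP, 7213, 6826 and 7050.5 in Pt1 and 1567, 716 and 3660.2 in parental cells, 18.5-fold lower on OHP array 2 and 3.69-fold lower on parental array 2. The PGK1 probe used was 10.2-fold lower on OHP array 2, and its second probe 2.21-fold lower. Another GAPDH probe instead was brightest on OHP array 2, with 39008, 58524 and 25326 in OHP, 21709, 26349 and 27935 in Pt1 and 32431, 42212 and 32720.5 in parental cells. On that GAPDH probe every Pt1 array lay below every parental array, at -0.50 ± 0.28 (limma adjusted p over probes = 0.38). Of 40 member probes above the ceiling on all arrays, 12 were at least 2-fold lower and 0 higher on OHP array 2, where 20.1% and 19.5% of such probes were. On parental array 2, 7 of the 40 were lower and 0 higher, where 2.4% and 0.682% were. What set these arrays apart was not tested.

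**Figure D4:**
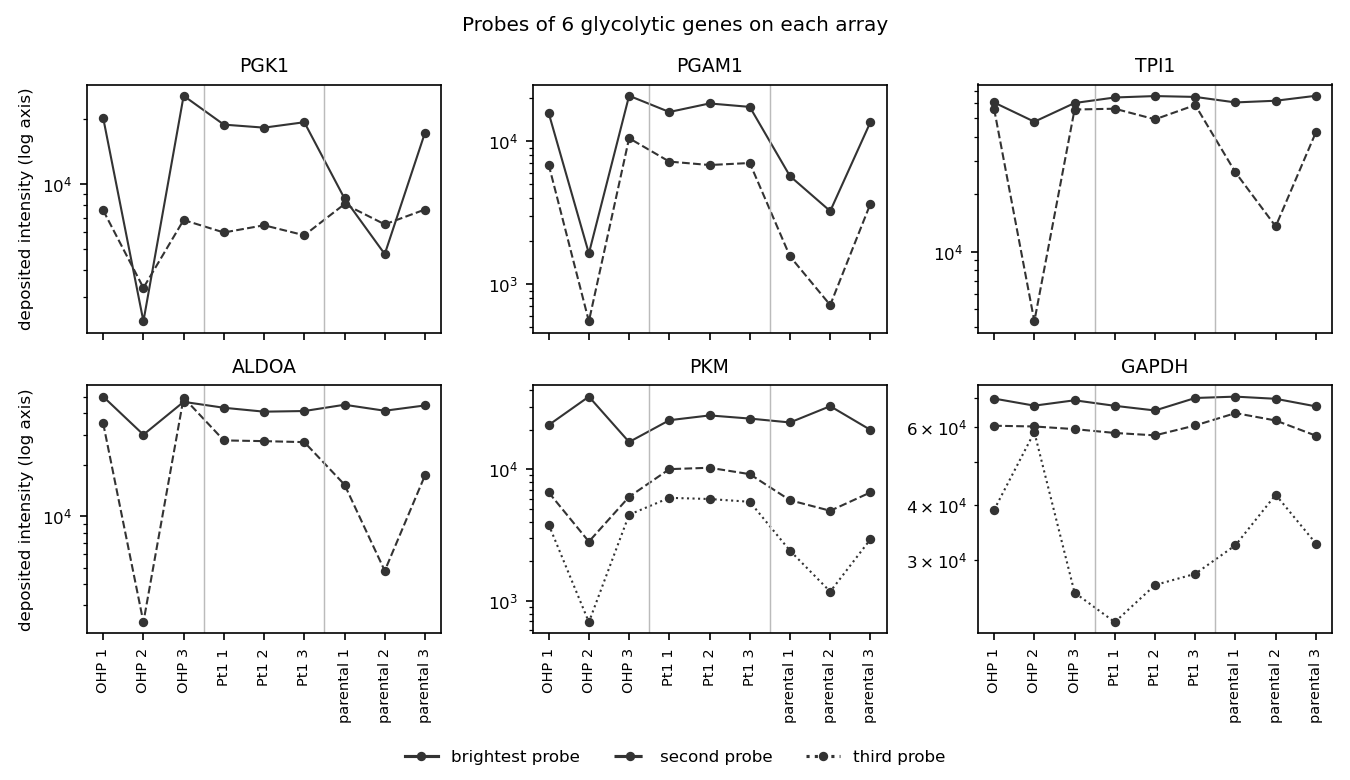
Deposited intensity (y axis, log scale) of the probes above the background ceiling for 6 glycolytic genes, across the 9 arrays (x axis, OHP, then Pt1, then parental, parted by vertical lines). Each line is 1 probe. At least 1 probe each of PGK1, PGAM1, TPI1 and ALDOA drops on OHP array 2 and less far on parental array 2, while the brightest probes of TPI1 and GAPDH stay near the top of the range.

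Without OHP array 2, many members that had not passed did so, as did many genes in all. In OHP against parental cells 9 members passed, against 16.7% of all genes, and in Pt1 against parental cells 13 passed, against 25.9%. OHP against Pt1 gave 5, against 12.2%. Many of all genes were not above background, and no share among genes above the ceiling was counted in fits without arrays. The members that joined in OHP against parental cells were PFKM, ALDOC, PGK1, PGAM1, EGLN1 and ANKRD37, all higher. Among them PGAM1 was at 1.54 ± 0.41 (adjusted p = 0.0218), PGK1 at 1.37 ± 0.38 (adjusted p = 0.0237), PFKM at 0.86 ± 0.17 (adjusted p = 0.00361) and EGLN1 at 0.85 ± 0.26 (adjusted p = 0.042). Those that joined as higher in Pt1 were SLC2A3, PFKM, PGK1, PGAM1, EGLN1 and BNIP3L. Here PGAM1 was at 1.47 ± 0.37 (adjusted p = 0.00971), EGLN1 at 1.11 ± 0.23 (adjusted p = 0.00311), PGK1 at 1.09 ± 0.34 (adjusted p = 0.0279) and BNIP3L at 0.91 ± 0.21 (adjusted p = 0.00578). GPI at -0.76 ± 0.17 (adjusted p = 0.00466), EGLN3 at -0.57 ± 0.15 (adjusted p = 0.0147) and NDRG1 at -0.61 ± 0.17 (adjusted p = 0.018) joined as lower. GPI alone joined in OHP against Pt1, at 1.05 ± 0.19 (adjusted p = 0.00212). Parental array 2, where PGK1 was 2.6-fold and PGAM1 2.76-fold lower than on the other parental arrays, stayed in these fits. The PGK1 values rest on the probe used for the gene. With all arrays, its second probe stood at -0.42 ± 0.29 in OHP and -0.29 ± 0.29 in Pt1 against parental cells. The second BNIP3L probe, above the ceiling on 8 of 9 arrays, was likewise at 0.02 ± 0.25 in Pt1 against parental cells with all arrays.

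Leaving out parental array 2 as well gave 8 members in OHP against parental cells, 10 in Pt1 against parental cells and 5 in OHP against Pt1, where 13.3%, 21.8% and 14.4% of all genes passed. PFKM, PGAM1, EGLN3, CA12 and ANKRD37 were then called in both resistant lines against the shared parental arrays, with the same sign in each. PGK1 was not among them. The share of all genes called in both lines was not counted, so these joint calls have no background beside them. For PGAM1 the values were 1.05 ± 0.32 (adjusted p = 0.0481) in OHP and 0.98 ± 0.29 (adjusted p = 0.0296) in Pt1. For PFKM they were 0.82 ± 0.18 (adjusted p = 0.00966) in OHP and 0.58 ± 0.17 (adjusted p = 0.0241) in Pt1. Leaving out both arrays was chosen after they had been seen to stand apart.

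The other genes of these pathways, 90 measured, were taken from lists of glycolytic and gluconeogenic enzymes, pyruvate handling, the pentose phosphate route, the factor's partners and regulators, and its further targets. In OHP against parental cells 2 were higher and 6 lower, 8.89% against 5.41% of all genes. In Pt1 against parental cells 4 were higher and 6 lower, 11.1% against 9.88%. In OHP against Pt1 cells 2 were higher and 6 lower, 8.89% against 7.59%. These shares too lay near those over all genes. Among genes above the ceiling on all arrays of at least 1 line, they were 12.7% against 9.3% in OHP and 15.9% against 17.3% in Pt1, each against parental cells. In OHP against Pt1 they were 14.3% against 13.5%.

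Of 13 partners and regulators of the factor, 1 rose and 0 fell in OHP, and 1 rose and 1 fell in Pt1, against parental cells. ARNT2, a dimer partner known from neurons, had 197, 195 and 208 in OHP, 2142, 1878 and 2076 in Pt1 and 198, 216 and 229.6 in parental cells. It was above the ceiling in Pt1 alone, where it was at least 6.71-fold higher than in parental cells (adjusted p = 5.27e-07). In OHP it was at least 6.71-fold lower than in Pt1 (adjusted p = 4.27e-07). VHL, the ubiquitin ligase subunit that recognises the hydroxylated factor, had 8301, 8081 and 8587 in OHP, 4248, 4234 and 5137 in Pt1 and 8713, 7965 and 6881 in parental cells. It fell by 0.80 ± 0.16 in Pt1 against parental cells (adjusted p = 0.0104), a call lost without Pt1 array 1 (adjusted p = 0.0528) or 2 (adjusted p = 0.0565). Against Pt1, VHL in OHP rose by 0.89 ± 0.16 (adjusted p = 0.00766). CITED2, which competes with the factor for its coactivator, had 6334, 3518 and 10105 in OHP, 2425, 2606 and 2904 in Pt1 and 1524, 1776 and 2889 in parental cells. It rose by 1.66 ± 0.37 in OHP (adjusted p = 0.0327), a call that ended with the removal of any 1 Pt1 array, of OHP arrays 1 and 3 singly, and of parental arrays 1 and 2 singly (adjusted p up to 0.136). EPAS1, another regulated subunit, had 5987, 2432 and 6907 in OHP, 3969, 4057 and 3941 in Pt1 and 6164, 3449 and 4366 in parental cells and was not called.

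Pyruvate transport and oxidation (13 genes) gave 1 higher and 3 lower in OHP, and 1 higher and 1 lower in Pt1, against parental cells. PDP1, the phosphatase that reactivates pyruvate dehydrogenase, had 622, 558 and 648 in OHP, 638, 715 and 672 in Pt1 and 334, 351 and 295 in parental cells. It rose by 1.16 ± 0.16 in OHP (adjusted p = 0.00218) and rose by 1.33 ± 0.16 in Pt1 (adjusted p = 0.000558). Both resistant lines lay above every parental array. MPC1, a subunit of the mitochondrial pyruvate carrier, had 8168, 7236 and 6964 in OHP, 6736, 7748 and 7741 in Pt1 and 11381, 18205 and 17784 in parental cells, and fell by 1.06 ± 0.20 in OHP (adjusted p = 0.0148) and fell by 1.07 ± 0.20 in Pt1 (adjusted p = 0.00885). The OHP call of MPC1 ended without parental array 2 (adjusted p = 0.0693) or 3 (adjusted p = 0.0735), and with the block in OHP and parental arrays alone (adjusted p = 0.059).

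DLAT, the acetyl-transferring core of the pyruvate dehydrogenase complex, had 1432, 899 and 2068 in OHP, 3585, 4453 and 3942 in Pt1 and 4012, 3894 and 4453 in parental cells. It fell by 1.65 ± 0.28 in OHP against parental cells (adjusted p = 0.00886) and fell by 1.60 ± 0.28 against Pt1 (adjusted p = 0.00824). Every OHP array lay below every other array. PDHX, which binds that complex together, had 4005, 2751 and 4033 in OHP, 6126, 6005 and 5969 in Pt1 and 6826, 5987 and 6988 in parental cells and fell by 0.91 ± 0.18 in OHP against parental cells (adjusted p = 0.0186). That call ended without parental array 1 (adjusted p = 0.0754) or 3 (adjusted p = 0.0852) and with the same block (adjusted p = 0.0544). Against Pt1 PDHX fell by 0.79 ± 0.18 (adjusted p = 0.0299), and this ended with the removal of any 1 Pt1 array, and of parental arrays 1 and 3 singly (adjusted p up to 0.111). LDHD, the dehydrogenase of D-lactate, was listed with the glycolytic enzymes and had 298, 376 and 378 in OHP, 415, 315 and 418 in Pt1 and 622, 692 and 864 in parental cells. It fell by 1.31 ± 0.23 in OHP (adjusted p = 0.0095) and fell by 1.14 ± 0.23 in Pt1 (adjusted p = 0.0118) against parental cells. The Pt1 call of LDHD ended with the mean of its probes, at -0.56, and without Pt1 array 2 (adjusted p = 0.0561) or parental array 3 (adjusted p = 0.0508).

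Of 22 other glycolytic and gluconeogenic enzymes, 0 rose and 1 fell in OHP, and 2 rose and 1 fell in Pt1, against parental cells. PGM1, which links glycogen to glycolysis, had 16828, 2894 and 22185 in OHP, 38141, 29207 and 35324 in Pt1 and 2820.0, 1284 and 3700.0 in parental cells. It rose by 3.90 ± 0.70 in Pt1 (adjusted p = 0.0066), and OHP was 2.16 ± 0.70 from parental cells (adjusted p = 0.134) with array 2 the lowest OHP array. PFKFB2, which sets the level of a phosphofructokinase activator, had 744, 507 and 848 in OHP, 941, 985 and 844 in Pt1 and 619, 468 and 548 in parental cells. It rose by 0.89 ± 0.24 in Pt1 (adjusted p = 0.0439), a call lost with the mean of its probes, at 0.27, and without any 1 Pt1 or parental array or OHP array 1 (adjusted p up to 0.17). The pentose phosphate route (6 genes) held 1 call, PGLS, its lactonase, with 9312, 7092 and 7451 in OHP, 7270.4, 6988 and 7086 in Pt1 and 10592, 10059.9 and 10653 in parental cells. It fell by 0.56 ± 0.15 in Pt1 (adjusted p = 0.0486), a call lost without any 1 Pt1 or parental array or OHP array 3 (adjusted p up to 0.16) and with the replicate number as a block (adjusted p = 0.0673).

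Of 36 further targets of the factor, 2 fell and 0 rose in OHP, and likewise in Pt1, against parental cells. AK4, a mitochondrial adenylate kinase, had 2025, 3287 and 2366 in OHP, 433, 722 and 543 in Pt1 and 5233, 5039 and 3909 in parental cells. It fell by 3.34 ± 0.27 in Pt1 against parental cells (adjusted p = 4.61e-05) and rose by 2.40 ± 0.27 in OHP against Pt1 (adjusted p = 0.000452). GYS1, glycogen synthase, had 2459.7, 3031 and 2189 in OHP, 1806, 1952 and 1896 in Pt1 and 3175, 3379 and 3573 in parental cells and fell by 0.87 ± 0.16 in Pt1 (adjusted p = 0.00821). IGFBP3, a secreted binder of insulin-like growth factors, had 5314, 11858 and 5822 in OHP, 23908, 18925 and 21579 in Pt1 and 33674, 30876 and 25349 in parental cells. It fell by 2.07 ± 0.29 in OHP against parental cells (adjusted p = 0.00258) and fell by 1.59 ± 0.29 against Pt1 (adjusted p = 0.00935), where it ended without Pt1 array 1 (adjusted p = 0.0517).

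ZNF395, a zinc finger protein, had 4429, 3345 and 4337 in OHP, 7408, 7481 and 8031 in Pt1 and 9182, 9854 and 8633 in parental cells. It fell by 1.22 ± 0.16 in OHP against parental cells (adjusted p = 0.00178) and fell by 0.95 ± 0.16 against Pt1 (adjusted p = 0.0063). RAB20, a small GTPase, had 378, 279 and 466 in OHP, 599, 694 and 656 in Pt1 and 425, 481 and 593 in parental cells and fell by 1.05 ± 0.26 in OHP against Pt1 (adjusted p = 0.0408). The RAB20 call was lost without any 1 Pt1 or parental array or OHP array 1 (adjusted p up to 0.158). DDIT4, an inhibitor of mTOR signalling, had 23298, 12062 and 23398 in OHP, 19319, 8856 and 12276 in Pt1 and 31268, 14394 and 14386 in parental cells and was not called.

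**Figure D5:**
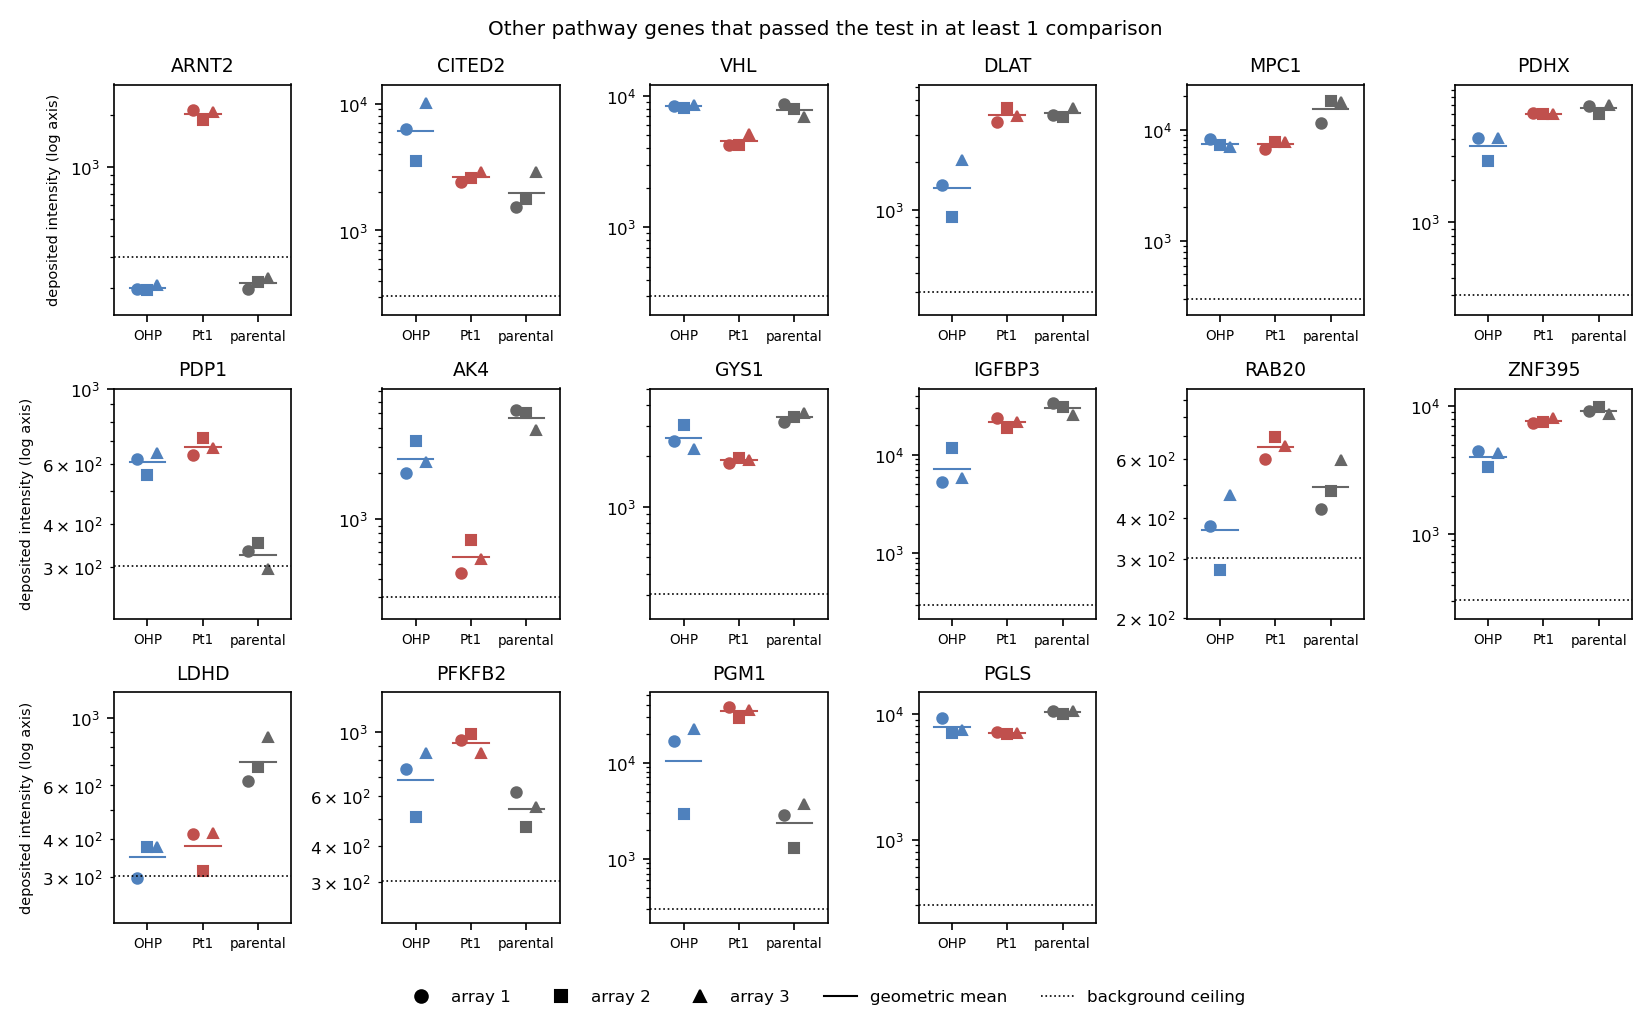
Deposited intensity (y axis, log scale) of the 16 other pathway genes called in at least 1 comparison, 1 panel each, by line (x axis: OHP, Pt1, parental), with a point for each array, a bar at the geometric mean of 3 arrays and a dotted line at the background ceiling. ARNT2 lies above the ceiling in Pt1 alone, AK4 is lowest in Pt1, and PDP1 is lowest in parental cells.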

How the data were processed

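RNA from 3 samples of each line had been hybridised to Illumina bead arrays. The deposited intensity values are on a linear scale, one per probe for 48803 probes. BeadStudio is named, without a version, per the submitters' processing notes. From the values, the deposited intensities were quantile normalised (sorted columns differ by at most 1.08%). The lowest is 125.13, so background had not been subtracted. A table with 18 columns whose array names match no sample label was not used. As it holds the detection p-values, the background ceiling stands in for them.

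Probes with 1 gene symbol (28098) were used, and not 13 with several or 20692 with none. They gave 18852 genes, 6132 of them with several probes and 18828 of them in the RefSeq gene table. The deposited intensities were corrected by normexp with offset 50 and log2 transformed. All 9 arrays entered 1 fit in limma 3.58.1 under R 4.3.3 (6 residual and 3.47 prior degrees of freedom), with 2-sided tests, Benjamini-Hochberg adjustment over 18852 genes and a threshold of 0.05. Errors beside a log2 fold change are SE from this fit. On simulated data, the fit recovered 2% of log2 changes of 0.5, 32% of changes of 1, 88% of changes of 2 and 96% of changes of 3. Each simulated gene had the same spread on all arrays, so arrays that stand apart, such as OHP array 2, were not represented. Plots were drawn with matplotlib 3.10.9 (Python 3.11.15). The members and gene lists were chosen with earlier results of these data known. Every member is named, and of the other pathway genes up to 4 called genes per list and comparison. EPAS1 and DDIT4, which were not called, were named outside that rule. Whether equal replicate numbers pair the arrays was checked by correlating deviations from the line means, which were 0.126, 0.671 and 0.502 for OHP and parental cells, 0.182, 0.045 and -0.004 for Pt1 and parental cells, and 0.021, -0.011 and -0.192 for OHP and Pt1. The main fit did not pair arrays. Only the alternatives with the replicate number as a block treated equal numbers as paired, which rests on the data and not on the labels. Alternatives were the background correction, normalisation, probe choice, a dim-gene filter, array weights, the replicate block, fits of 2 lines, the variance prior and leaving arrays out.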

Additional observations from a re-analysis of the deposited data

Results flagged for a closer look

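Differences between the resistant lines were tested directly as OHP against Pt1 in limma, and 4 members and 8 other pathway genes passed. Among the members ENO2 had a log2 fold change of -4.47, with 1 of 3 OHP arrays above the ceiling, ADM of -3.05, HK1 of -1.26 and ALDOC of 1.13. Among the other pathway genes ARNT2 had a fitted -4.22, but was above the ceiling on 0 of 3 OHP arrays, so that it was at least 6.71-fold lower in OHP. The others were DLAT at -1.60, IGFBP3 at -1.59, RAB20 at -1.05, ZNF395 at -0.95, PDHX at -0.79, AK4 at 2.40 and VHL at 0.89. Groups of 3 arrays were not tested for outlying samples.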

How the results depend on the processing

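Counts are of genes called, with all 9 arrays in the main analysis. With array weights, 9 members, 20 pathway genes and 3371 genes in all were called in OHP against parental cells (main 3, 8 and 1020). The same weights gave 12, 26 and 4889 in Pt1 against parental cells (main 4, 10 and 1863), and 8, 31 and 4587 in OHP against Pt1 (main 4, 8 and 1430). The F-test then called 14 members (main 7). Without OHP array 2 and parental array 2, the counts were 8, 17 and 2508 in OHP against parental cells and 10, 22 and 4105 in Pt1 against parental cells. They were 18 pathway genes and 2708 genes in all in OHP against Pt1, and the F-test called 12 members. With only the arrays of the compared lines, 4 pathway genes and 481 genes were called in OHP against parental cells, 12, 26 and 4882 in Pt1 against parental cells, and 847 genes in OHP against Pt1. Leaving out each array in turn gave 2 to 9 members, 6 to 20 pathway genes and 590 to 3148 genes in OHP against parental cells. It gave 3 to 13, 6 to 27 and 1039 to 4877 in Pt1 against parental cells, and 3 to 5, 5 to 14 and 733 to 2297 in OHP against Pt1. The F-test called 4 to 14 members. For the F-test, the share of all genes was counted in the main analysis alone. Each highest count was reached without OHP array 2. In OHP against Pt1, 5 members were also called without parental array 1, and 14 pathway genes also without OHP array 3. The error in the main fit is pooled over all 3 lines, so OHP arrays also enter the error of Pt1 against parental cells. Why OHP array 2 stood apart was not tested.

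ADM in OHP against parental cells (0.04) turned to -0.056 with array weights, -0.0084 without OHP array 2 and -0.053 without parental array 3, the lowest without 1 array, the highest being 0.11. CA12 in OHP against Pt1 (0.04) turned to -0.084 with array weights, -0.026 without Pt1 array 2, and -0.062 without OHP array 2 with or without parental array 2. Without 1 array it lay between -0.062 and 0.13. Neither was called. With the replicate number as a block, 4 members were called in OHP against parental cells, 4 in Pt1 against parental cells and 4 in OHP against Pt1, and 10, 11 and 12 pathway genes. Over all genes, 1021 (5.42%), 2095 (11.1%) and 1598 (8.48%) were called with that block. In OHP and parental arrays alone with that replicate block, 3 members, 7 pathway genes and 796 genes were called. CA12, ADM, ENO2, the Pt1 call of ANKRD37 and the OHP against Pt1 call of HK1 passed under every alternative run, as listed in the methods. The size of the last moved, to -0.59 with the mean of the gene's probes. EGLN3 in OHP against parental cells (-0.87) was -0.53 without background correction. Fits of the compared lines alone ended the calls of EGLN3, DLAT, MPC1, PDHX and CITED2 in OHP against parental cells and of ALDOC, PDHX and RAB20 in OHP against Pt1, and EGLN3 passed in Pt1 against parental cells (-0.57). A robust variance prior with trend ended PFKFB2 and PGLS in Pt1 and PDHX and RAB20 in OHP against Pt1. The filter on dim genes left EGLN3 untested.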
